A study of Homo sapiens with 6 samples.

Results

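The glucocorticoid receptor gene NR3C1 and 7 genes known to respond to hydrocortisone, FKBP5, TSC22D3, ZFP36, CEBPB, CEBPD, SGK1 and GLUL, were followed in SCC9 cells, an established line from a human oral squamous cell carcinoma. They were taken by symbol from a list, and 8 of 8 had an entry among 19437 genes. Polyadenylated RNA was sequenced from 3 libraries transduced with an adenovirus for TEADi, given in the labels as a protein that inhibits TEAD, and from 3 transduced with an adenovirus for GFP (green fluorescent protein). The libraries of each group were lettered A, B and C. Both groups had the same multiplicity of infection, 25, applied the day after plating, and were harvested at 48 h. The medium of both was DMEM/F12 that held hydrocortisone at 400 ng/ml and FBS at 10%, under 5% CO2, so no group lacked the hormone and the response to it was not measured. The comparison asked which transcripts differed between TEADi and GFP cells that had the same hormone. Beyond transduction in triplicate no separate cultures are described, so the p-values measure how far these libraries spread, and that spread may be technical.

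The glucocorticoid receptor is a transcription factor held in the cytoplasm by the HSP90 chaperone and its partners until cortisol, whose drug name is hydrocortisone, binds it. It then enters the nucleus, raises some genes through glucocorticoid response elements in DNA and lowers many inflammatory genes driven by NF-kB and AP-1. Several of its targets act back on it or share its anti-inflammatory role, among them FKBP5, which lowers the hormone affinity of the receptor, TSC22D3 (GILZ), which binds NF-kB and AP-1 proteins, and ZFP36 (tristetraprolin), which speeds the decay of AU-rich messenger RNAs. Hydrocortisone is a common additive to the media of squamous cells.

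FKBP5, TSC22D3, ZFP36 and CEBPB rose in TEADi cells, TSC22D3 by 3.11-fold and ZFP36 by 3.47-fold, while NR3C1 itself differed by 1.09-fold and did not pass the test. SGK1 was the gene of the 8 that fell, by 1.2-fold. Counts of 4 higher and 1 lower among 8 genes stand beside 25.5% higher and 35.3% lower among all 13640 genes tested. That is 50% and 12.5% of the 8, and the 5 calls in either direction stand beside 60.8% of all tested genes. The groups did not overlap in 6 of the 8 genes, while over all tested genes 65.8% did not overlap. TEADi was above in 4 of the 8, against 27.7% of all, and below in 2, against 38.1% of all. The test was limma on log2(CPM + 1) with Benjamini-Hochberg adjustment and an adjusted p under 0.05, where CPM is the authors' read abundance scaled to library size with TMM factors. Each of the 8 genes was above the filter of 1 CPM in all 6 libraries. The median log2 fold change was 0.38 over the 8 genes and -0.07 over all tested genes.

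The known TEAD-dependent genes ANKRD1 and CYR61 were 43.9-fold and 6.24-fold lower in TEADi. The library totals of scaled values were 827082 to 873436 in TEADi and 887359 to 915530 in GFP, so every TEADi total was below every GFP total. Divided by each library's smallest value, which 651 entries held in all 6 libraries, the totals were 9589284 to 15380100, the nearest measure of depth. On that scale ZFP36, the lowest of the 8 in GFP, stood at 200, 289 and 381 times the smallest value in TEADi and at 86, 79 and 94 times in GFP. Of 10 squamous epithelial markers, KRT5, KRT14, KRT6A, KRT17, TP63 and CDH1 did not reach the filter. KRT5 stood at 0.173, 0.216 and 0.302 CPM in the TEADi libraries A to C, against 21.7, 17.2 and 0.414 CPM in the GFP libraries A to C, so that GFP libraries A and B stood apart from GFP library C. KRT14 had 0.0863, 0.0719 and 0.121 CPM in TEADi, against 3.57, 1.52 and 0.069 CPM in GFP, and TP63 0.0863, 0.0719 and 0.0603 CPM in TEADi, against 0.893, 0.91 and 0.138 CPM in GFP. The summed squamous markers came to 181 to 192 CPM in TEADi and 319 to 407 CPM in GFP, mostly KRT8 and KRT18, keratins of simple epithelia whose genes overlap each other in the table. Of the same 10, SFN had 18.5, 21.6 and 20.7 CPM in TEADi, against 60.4, 55.9 and 50.5 CPM in GFP. EPCAM had 1.38, 1.73 and 2.11 CPM in TEADi, against 3.33, 3.41 and 2.21 CPM in GFP. Both were called lower in TEADi. The sum of 5 fibroblast markers was 1179.7 to 1248 CPM in TEADi and 539 to 704 CPM in GFP, with decorin (DCN) at 675 ± 19.4 CPM in TEADi and 54.5 ± 5.57 CPM in GFP (SD over 3 libraries a group, as for all later means). DCN, LUM and COL3A1 were called higher, COL1A1 was called lower (254 ± 19.7 CPM in TEADi and 379 ± 67.5 CPM in GFP) and COL1A2 was not called (73.4 ± 1.12 CPM in TEADi and 74.5 ± 13 CPM in GFP). On group means DCN alone rose by more than the sum did, and the remaining fibroblast markers together were lower in TEADi. The endothelial markers CDH5 and VWF together reached at most 0.357 CPM. Among leukocyte markers 1 could be analysed, CD68, at 745 ± 36.1 CPM in TEADi and 284 ± 3.13 CPM in GFP. The leukocyte markers PTPRC and CD3E had no entry, so whether leukocyte RNA was present was not tested. The defining markers KRT5, KRT14, TP63 and CDH1 thus stood at 0.302 CPM or less in TEADi and at 0.414 CPM or less in GFP library C. Fibroblast matrix genes were expressed in all 6 libraries. Both go against the squamous label, while SFN, KRT8 and KRT18, of the same squamous list, were also expressed in all 6 libraries. The part of these markers in the results was not tested. In bulk RNA, fewer cells of a type and less RNA per cell cannot be told apart. FKBP5, TSC22D3, ZFP36 and CEBPB were also called higher with GFP library C as the only GFP library, at log2 fold changes between 0.62 and 1.71 (limma, Benjamini-Hochberg adjusted p from 2.5e-25 to 2.9e-08). That fit assumes that a single GFP library would vary as the TEADi libraries do.

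**Figure D1:**
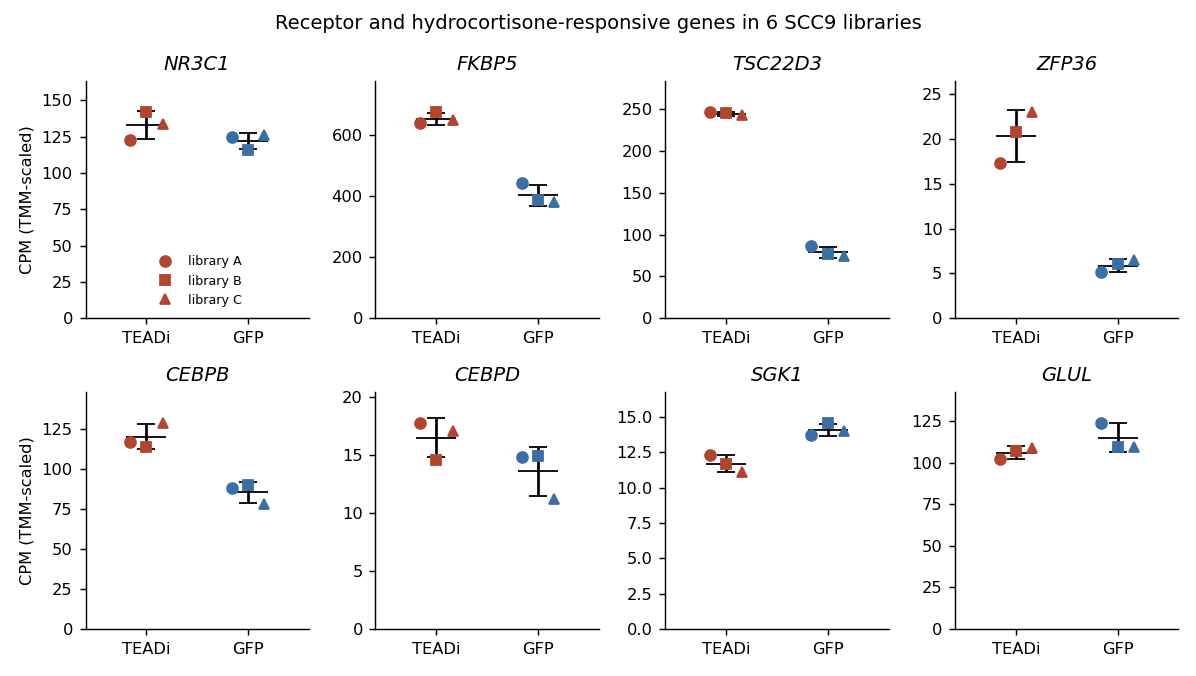
Scaled read abundance (CPM, vertical axes from 0) of the 8 genes in each of 3 TEADi libraries (left, red) and 3 GFP libraries (right, blue); the bar and whiskers are the mean and SD. FKBP5, TSC22D3, ZFP36 and CEBPB have every TEADi library above every GFP library, SGK1 and GLUL have every TEADi library below, and the groups of NR3C1 and CEBPD overlap.

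Upstream sequence was examined because 4 of the 8 genes rose together. RefSeq starts (build GRCh38.p14, which is not the hg19 of the deposited coordinates) were found for 7 genes by symbol and gave 21 windows of 250 bases ending at a start. CEBPD was not searched. The hexamer of the glucocorticoid response element, AGAACA, searched like every motif on both strands, was in 0 of them, and so was the full palindromic element, which holds the hexamer. Over all 35116 windows of that length, 0.00285% hold the palindrome and 12.4% the hexamer. The TEAD motif GGAATG was in 2 of the 21 windows, and in 11.9% of all windows. One was the single ZFP36 window and the other 1 of the 7 NR3C1 windows. The core of the cAMP response element, TGACG, which 21.2% of all windows hold, was in 5 of the 21, among them 2 of the 4 TSC22D3 windows, and occurred 2 times in the TSC22D3 window shown. A match is a run of letters and says nothing of binding, and glucocorticoid response elements of these genes outside the windows were not searched. The windows below are 1 each from the 3 genes with the strongest calls and from NR3C1. Matches are in capitals, and bases run 5′ to 3′ on the strand of the gene. Shown for NR3C1 is the window with the TEAD match, and for TSC22D3 the one with 2 TGACG matches. Other windows of TSC22D3, FKBP5 and NR3C1 are not shown.
ZFP36 (chr19:39406597-39406846, plus strand): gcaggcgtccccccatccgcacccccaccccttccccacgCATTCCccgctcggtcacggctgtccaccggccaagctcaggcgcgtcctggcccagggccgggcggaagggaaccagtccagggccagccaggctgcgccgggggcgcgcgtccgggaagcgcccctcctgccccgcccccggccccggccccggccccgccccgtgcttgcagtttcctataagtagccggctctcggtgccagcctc
TSC22D3 (chrX:107717063-107717312, minus strand): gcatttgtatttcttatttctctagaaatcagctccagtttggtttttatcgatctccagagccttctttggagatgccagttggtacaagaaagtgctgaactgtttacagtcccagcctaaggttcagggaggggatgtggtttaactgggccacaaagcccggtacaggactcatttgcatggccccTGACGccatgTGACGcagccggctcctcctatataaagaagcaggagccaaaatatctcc
FKBP5 (chr6:35688916-35689165, minus strand): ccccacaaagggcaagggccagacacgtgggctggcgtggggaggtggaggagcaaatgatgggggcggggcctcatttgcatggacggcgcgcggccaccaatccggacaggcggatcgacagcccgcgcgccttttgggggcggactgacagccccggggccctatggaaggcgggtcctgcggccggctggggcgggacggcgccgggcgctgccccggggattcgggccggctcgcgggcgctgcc
NR3C1 (chr5:143435513-143435762, minus strand): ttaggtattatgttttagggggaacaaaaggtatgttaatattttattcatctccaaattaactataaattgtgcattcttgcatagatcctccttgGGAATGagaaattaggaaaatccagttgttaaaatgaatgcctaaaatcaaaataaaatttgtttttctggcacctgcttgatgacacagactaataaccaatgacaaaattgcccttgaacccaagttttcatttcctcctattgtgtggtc
The capitals in ZFP36 and NR3C1 are the TEAD motif, in ZFP36 as its reverse complement, those in TSC22D3 the TGACG core, and the FKBP5 window shown has none of the 8 motifs searched (the others were AP-1 as TGANTCA, C/EBP as TTGCNNAA, and the CArG box and NF-kB by name).

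The receptor gene NR3C1 (chromosome 5, 142657496 to 142815077, minus strand, hg19) was measured at 123, 142 and 134 CPM in the TEADi libraries A to C, against 125, 116 and 126 CPM in the GFP libraries A to C. TEADi library A lay among the GFP libraries and TEADi libraries B and C above them, so the groups overlapped. The mean was 133 ± 9.61 CPM in TEADi and 122 ± 5.75 CPM in GFP, with a log2 fold change of 0.12 ± 0.07 (SE) and a 95% interval of -0.03 to 0.26 (limma, Benjamini-Hochberg adjusted p = 0.164). The call rests on the scaling. NR3C1 was called higher with libraries set to equal totals (log2 fold change 0.19, adjusted p = 0.012), with median-ratio factors (0.20, 0.00943) and after quantile normalization (0.22, 0.00478; limma, Benjamini-Hochberg). The authors' deposited table gives a ratio of 1.09 and an adjusted p (FDR step up) of 0.221. The processed pseudogene RPL7P21 lies within the gene on the other strand and reached 0.4% of its level. Among 9248 other genes with a mean of at least 10 CPM, the profiles over the 6 libraries most like that of NR3C1 by Pearson's r of log2(CPM + 1) were those of GK5, a glycerol kinase (r = 0.9937), PI4KA, a phosphatidylinositol kinase (0.9866), and MDM2, the ubiquitin ligase of p53 (0.9812). These values describe 6 points that share their libraries and groups. MDM2 had 111, 119.7 and 118 CPM in TEADi, against 111, 105 and 112 CPM in GFP, and like NR3C1 it was highest in TEADi library B and lowest in GFP library B.

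FKBP5 (chromosome 6, 35541362 to 35696360, minus strand, hg19) encodes an immunophilin that sits on the receptor-HSP90 complex and is itself one of the most hormone-responsive genes. It stood at 638, 675 and 648 CPM in the TEADi libraries A to C, against 443, 386 and 381 CPM in the GFP libraries A to C. Every TEADi library was above every GFP library, and GFP library A was the highest of the GFP libraries. FKBP5 rose 1.62-fold (653 ± 19.4 CPM in TEADi and 403 ± 34.4 CPM in GFP), a log2 fold change of 0.70 ± 0.07 (SE; 95% interval 0.54 to 0.85; limma, Benjamini-Hochberg adjusted p = 4.5e-07). Of 13640 log2 fold changes, 90.3% were below it. The authors' deposited table gives a ratio of 1.62 with an adjusted p of 6.3e-07.

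TSC22D3 (chromosome X, 106956451 to 107020572, minus strand, hg19), which encodes GILZ, the glucocorticoid-induced leucine zipper protein, had 247, 246 and 243 CPM in the TEADi libraries A to C, against 86, 76.6 and 74.2 CPM in the GFP libraries A to C. The TEADi libraries lay within a few CPM of each other and far above the GFP libraries. The rise was 3.11-fold (245 ± 2.3 CPM in TEADi and 78.9 ± 6.25 CPM in GFP), with a log2 fold change of 1.63 ± 0.07 (SE; 95% interval 1.48 to 1.77; limma, Benjamini-Hochberg adjusted p = 3.5e-12), the 215th highest of 13640. In the authors' deposited table the ratio is 3.11 with an adjusted p of 6.6e-07. Of its relatives, proteins with the same TSC box and leucine zipper, TSC22D1 rose 1.43-fold (87.1, 88.6 and 92.8 CPM in TEADi, against 64.6, 61.3 and 62.2 CPM in GFP; adjusted p = 4.6e-06, limma, Benjamini-Hochberg) and TSC22D2 fell 1.37-fold (43.1, 45.5 and 51.8 CPM in TEADi, against 65.2, 62.9 and 64.3 CPM in GFP; adjusted p = 8.3e-05, limma, Benjamini-Hochberg). TSC22D4 had 44.6, 42.3 and 51.8 CPM in TEADi, against 43.8, 46 and 41.4 CPM in GFP and was not called.

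ZFP36 (chromosome 19, 39897453 to 39900052, plus strand, hg19), the RNA-decay protein, was measured at 17.3, 20.8 and 23 CPM in the TEADi libraries A to C, against 5.12, 5.99 and 6.48 CPM in the GFP libraries A to C. The lowest TEADi library was above the highest GFP library by more than the range within either group. It rose 3.47-fold (20.3 ± 2.89 CPM in TEADi and 5.86 ± 0.69 CPM in GFP), with a log2 fold change of 1.63 ± 0.12 (SE; 95% interval 1.37 to 1.90; limma, Benjamini-Hochberg adjusted p = 8.2e-09), the 211th highest of 13640. On the log2(CPM + 1) scale the change of such a low gene is understated, and with a pseudocount of 5 it was 1.22. The authors' deposited table gives a ratio of 3.47 with an adjusted p of 5.2e-08. Its relatives bind the same AU-rich elements. ZFP36L2 rose 1.95-fold (89.7, 93 and 94.3 CPM in TEADi, against 46.1, 49.4 and 46.5 CPM in GFP; adjusted p = 3.3e-09, limma, Benjamini-Hochberg), but THADA overlaps it in the table on the same strand at 67.6% of its level. ZFP36L1 rose 1.21-fold (105, 113 and 126 CPM in TEADi, against 92.6, 94.2 and 98.2 CPM in GFP; adjusted p = 0.0048, limma, Benjamini-Hochberg).

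**Figure D2:**
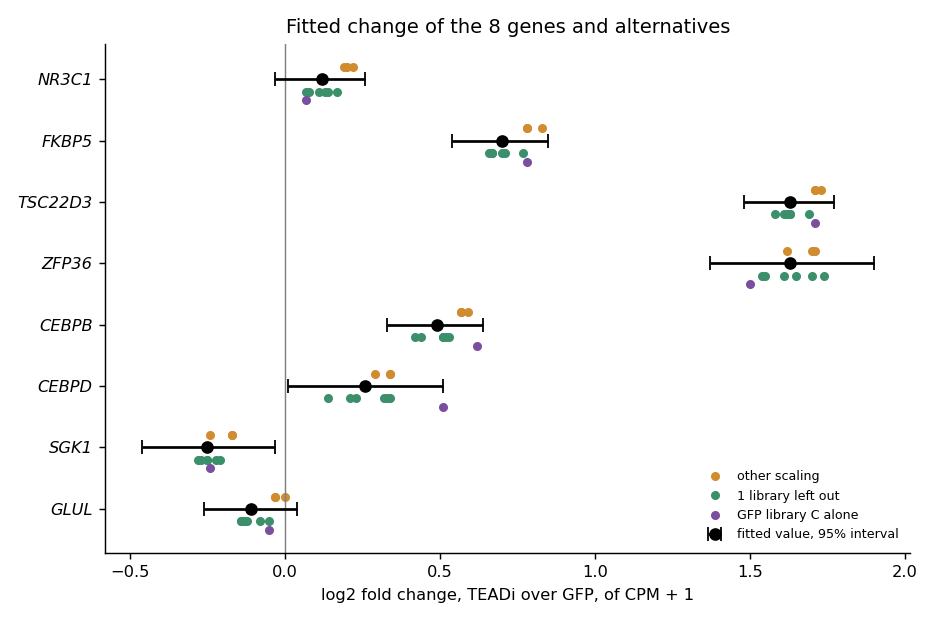
Log2 fold change of CPM + 1, TEADi over GFP (horizontal axis), of the 8 genes: black points and bars are the fitted values with 95% intervals, and coloured points are fits with another scaling, with 1 library left out, or with GFP library C as the only GFP library. TSC22D3 and ZFP36 lie near 1.63 and FKBP5 and CEBPB at 0.70 and 0.49 on the positive side throughout, while the intervals of NR3C1 and GLUL cross 0.

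CEBPB (chromosome 20, 48807376 to 48809212, plus strand, hg19) encodes a leucine zipper transcription factor of the acute-phase response and of epithelial differentiation. Its values were 117, 114 and 129 CPM in the TEADi libraries A to C, against 88.1, 90.2 and 78 CPM in the GFP libraries A to C, with every TEADi library above every GFP library. CEBPB rose 1.41-fold (120.2 ± 7.9 CPM in TEADi and 85.4 ± 6.54 CPM in GFP), a log2 fold change of 0.49 ± 0.07 (SE; 95% interval 0.33 to 0.64; limma, Benjamini-Hochberg adjusted p = 2.4e-05), and the authors' deposited table gives a ratio of 1.41 with an adjusted p of 2.1e-04. CEBPD (chromosome 8, 48649471 to 48651648, minus strand, hg19), its close relative and an early responder to hormone and cytokines, had 17.8, 14.6 and 17.1 CPM in the TEADi libraries A to C, against 14.8, 14.9 and 11.2 CPM in the GFP libraries A to C. TEADi library B was below GFP libraries A and B, so the groups overlapped. CEBPD averaged 16.5 ± 1.67 CPM in TEADi and 13.6 ± 2.09 CPM in GFP (0.26 ± 0.12 SE, 95% interval 0.01 to 0.51; limma, Benjamini-Hochberg adjusted p = 0.0667) and was not called. It was called higher with equal totals (adjusted p = 0.0275), with median-ratio factors (0.0265), without TEADi library B (0.0325), without GFP library A (0.0289), without GFP library B (0.0452), and with both GFP A and B left out (0.00286, at a log2 fold change of 0.51; limma, Benjamini-Hochberg). Over its alternatives the adjusted p ran from 0.00286 to 0.322. CEBPG, a zipper partner that lacks an activation domain, fell 1.58-fold (19.7, 22.1 and 21.6 CPM in TEADi, against 36.3, 30.2 and 33.3 CPM in GFP; adjusted p = 1.4e-05, limma, Benjamini-Hochberg). CEBPA, the family member of resting and differentiated cells, stood at the smallest value of each library.

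SGK1 (chromosome 6, 134490384 to 134639250, minus strand, hg19), a kinase induced by serum and glucocorticoids that regulates sodium transport and survival, was measured at 12.3, 11.7 and 11.1 CPM in the TEADi libraries A to C, against 13.7, 14.6 and 14 CPM in the GFP libraries A to C. The TEADi libraries were lower than the GFP libraries without overlap. SGK1 averaged 11.7 ± 0.618 CPM in TEADi and 14.1 ± 0.439 CPM in GFP, a log2 fold change of -0.25 ± 0.10 (SE; 95% interval -0.46 to -0.03; limma, Benjamini-Hochberg adjusted p = 0.0444). The call was near the threshold and held in 7 of 16 alternatives. Among those in which it was lost were the fits without TEADi library B (adjusted p = 0.0925), TEADi library C (0.134), GFP library B (0.123) or GFP library C (0.0775), with GFP library C alone (0.192), under equal totals (0.145), under median-ratio factors (0.155) and without the filter on low values (0.0554; limma, Benjamini-Hochberg). The authors' deposited table gives a ratio of 0.832 and an adjusted p of 0.00495. Of 8 genes that SGK1 acts on or works with, 3 rose, 3 fell and 2 were not called, so that 37.5% were called in each direction, against 25.5% higher and 35.3% lower among all tested genes. NDRG1, a phosphorylation target used to read SGK1 activity, rose 3.08-fold (132, 143 and 151 CPM in TEADi, against 44.8, 46.8 and 46.7 CPM in GFP). NEDD4L, the ubiquitin ligase that SGK1 phosphorylates in sodium transport, fell 1.71-fold (68.7, 73.1 and 67.9 CPM in TEADi, against 126, 112 and 121 CPM in GFP; adjusted p = 6.1e-08, limma, Benjamini-Hochberg). RICTOR (0.51 on the log2 scale, called higher) and MAPKAP1 (-0.34, called lower) belong to the mTORC2 complex that phosphorylates SGK1. RICTOR overlaps OSMR, a gene at 334.5% of its level on the other strand. The calls of SCNN1A (higher, adjusted p = 0.0426) and FOXO3 (lower, adjusted p = 0.0433, limma, Benjamini-Hochberg) were near the threshold. The TEADi and GFP libraries overlapped for each of them. Without the filter on low values, 2 of these SGK1 partners were called higher and 2 lower. Under each of the 3 other scalings, 4 were called higher and 2 lower.

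GLUL (chromosome 1, 182350839 to 182361341, minus strand, hg19), glutamine synthetase, had 102, 107 and 109 CPM in the TEADi libraries A to C, against 124, 109.6 and 109.6 CPM in the GFP libraries A to C. The highest TEADi library was just below the lowest GFP library, and GFP library A stood above the rest. GLUL averaged 106 ± 3.85 CPM in TEADi and 115 ± 8.6 CPM in GFP, with a log2 fold change of -0.11 ± 0.07 (SE; 95% interval -0.26 to 0.04; limma, Benjamini-Hochberg adjusted p = 0.18), and was called in 0 of 16 alternatives (adjusted p from 0.135 to 0.973). The authors' deposited table gives a ratio of 0.924 and an adjusted p of 0.28. GLUD1, which passes glutamate, a substrate of GLUL, to the citric acid cycle, had 139.6, 146 and 152 CPM in TEADi, against 162, 141 and 139 CPM in GFP and was not called.

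HSD11B1, the reductase that turns inactive cortisone into cortisol, was 21.9-fold higher in TEADi (10.6, 10.9 and 11.2 CPM in the TEADi libraries A to C, against 0.833, 0.379 and 0.276 CPM in the GFP libraries A to C). It passed the filter through the TEADi libraries alone. H6PD, which supplies NADPH to HSD11B1 in the endoplasmic reticulum, rose 3.56-fold (107, 106 and 107 CPM in TEADi, against 25.4, 31.6 and 33 CPM in GFP; adjusted p = 2.0e-11, limma, Benjamini-Hochberg). Of 7 tested genes of hormone supply and related receptors 3 rose and 2 fell (42.9% and 28.6%, against 25.5% and 35.3% of all tested genes), and the median of their log2 fold changes was 0.08. These shares count HSD11B1 and ABCB1, each tested only through the group in which it is high. Without TEADi library A, B or C HSD11B1 was under the filter, and 2 of the 6 genes left were called higher. The gene that rose besides HSD11B1 and H6PD was POR, an electron donor to cytochromes, at 62.8 ± 4.23 CPM in TEADi and 50.4 ± 3.64 CPM in GFP. These are merged values of entries on chromosome 7 and on a patch sequence. TMEM120A overlaps the patch entry on the other strand at 43.1% of that entry's level, and no gene overlaps the chromosome 7 entry. ABCB1, an efflux pump that can carry glucocorticoids (0.518, 0.575 and 0.784 CPM in TEADi, against 1.01, 1.67 and 1.52 CPM in GFP, with RUNDC3B overlapping it on the other strand at 91.3% of its level), and PGR, the progesterone receptor, were called lower. ABCB1 passed the filter through the GFP libraries alone, so that its call was bound to the group in which it is high. With equal totals or without GFP library B ABCB1 was under the filter and 0 of the 6 genes left were called lower. Without GFP library A or C, where ABCB1 was again under the filter, 1 of 6 was, and without TEADi library A or C, where HSD11B1 was under it, 1 of 6 was. HSD11B2, the enzyme that inactivates cortisol, reached at most 0.288 CPM and NR3C2, the mineralocorticoid receptor, at most 1.43 CPM, and neither passed the filter.

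Among 15 receptor chaperones and cochaperones 13 fell and 0 rose, against 35.3% lower among all genes, and the median was -0.42. FKBP4, the cochaperone that competes with FKBP5 for the receptor complex, fell 1.58-fold (102, 109 and 109 CPM in TEADi, against 179, 163 and 163 CPM in GFP; adjusted p = 2.5e-07, limma, Benjamini-Hochberg), the opposite direction to FKBP5. HSP90AA1 averaged 1689.7 ± 26.9 CPM in TEADi and 2813 ± 258 CPM in GFP and HSP90AB1 1894 ± 35.2 CPM in TEADi and 3071 ± 143 CPM in GFP, and both fell. DNAJB1 fell 1.55-fold, with TECR overlapping it on the other strand at 33.2% of its level. PPP5C (77.2, 78.3 and 77.9 CPM in TEADi, against 87.6, 78.5 and 81.7 CPM in GFP) and BAG1 (27.8, 30.5 and 29.7 CPM in TEADi, against 37.3, 31.5 and 28.7 CPM in GFP) were not called. GFP library A was the highest library for each of these 6 genes. Without it 13 of the 15 were called lower, with GFP library C alone 12, and with quantile normalization 10. HSP90AA1, HSP90AB1 and other chaperones have near-identical pseudogene copies, and how reads that fit several copies were counted is not given.

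**Figure D3:**
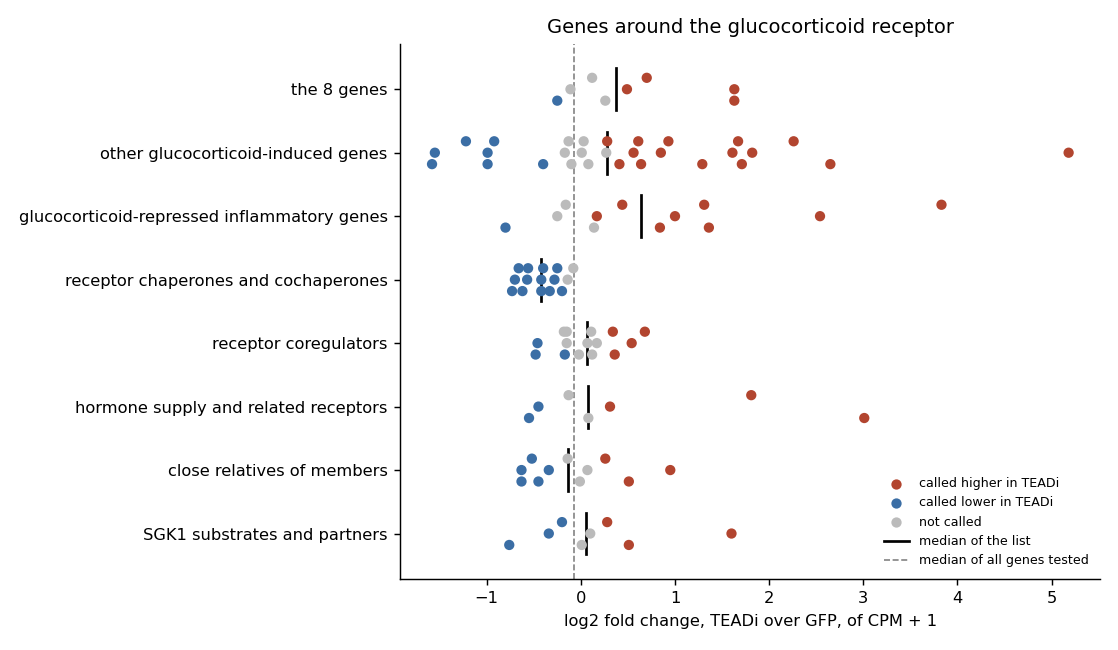
Log2 fold change of CPM + 1, TEADi over GFP (horizontal axis), of each tested gene in the 8 gene groups (rows): red points were called higher in TEADi, blue lower and grey not called, black bars are group medians, and the dashed line is the median of all tested genes at -0.07. The chaperones lie to the left of 0, and the induced and repressed genes spread to both sides.

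Other genes known to be induced by glucocorticoids went in both directions. Of 29 tested, 15 rose and 7 fell (51.7% and 24.1%, against 25.5% and 35.3% of all genes). Their log2 fold changes had a median of 0.28. The calls with the smallest adjusted p were ANGPTL4, a lipoprotein lipase inhibitor, at 43.8-fold higher, the metallothionein MT1X (80.2, 82.4 and 74 CPM in TEADi, against 11.8, 11.8 and 11.4 CPM in GFP), the MAP kinase phosphatase DUSP1 (150.2, 161 and 168 CPM in TEADi, against 47.6, 44.1 and 42.1 CPM in GFP) and the mTOR inhibitor DDIT4 (243, 235 and 257 CPM in TEADi, against 78.2, 83.8 and 77.2 CPM in GFP). Their rises were 6.75-fold, 3.58-fold and 3.08-fold for MT1X, DUSP1 and DDIT4. Chosen after their values were seen, KLF9, a transcription factor directly induced by the receptor, rose 3.33-fold (109, 120.1 and 117 CPM in TEADi, against 38.5, 32.5 and 33 CPM in GFP), the zinc finger factor ZBTB16 1.88-fold and the metallothionein MT2A 3.16-fold (1442 ± 66.1 CPM in TEADi and 457 ± 67.9 CPM in GFP). Metallothionein genes resemble each other closely, so reads may be split among them. SCNN1A, called higher, is overlapped on the other strand by LTBR at 1225.9% of its level. TXNIP, also called higher, is a merged value of entries on chromosome 1 and on a patch sequence. SNORA40 overlaps the chromosome 1 entry on the other strand at 703.9% of that entry's level, and no gene overlaps the patch entry.

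Among the 7 that fell were NFKBIA, GADD45A, BIRC3, CRISPLD2, CITED2 and EDN1. NFKBIA, the inhibitor of NF-kB, stood at 85, 71.1 and 82.4 CPM in TEADi, against 167, 164 and 144 CPM in GFP, and CRISPLD2, a secreted protein that binds endotoxin, at 12.9, 13 and 14.3 CPM in TEADi, against 37.8, 42.2 and 44.1 CPM in GFP. EDN1, which encodes endothelin, passed the filter through the GFP libraries alone (0.431, 0.36 and 0.422 CPM in TEADi, against 3.69, 2.81 and 3.17 CPM in GFP). Without GFP library A, B or C EDN1 was under the filter, and 6 of the 28 genes left were called lower. PER1, a clock gene with a strong hormone response, had 80.5, 86.4 and 92.7 CPM in TEADi, against 76.8, 90.4 and 90.1 CPM in GFP and was not called, with a log2 fold change of 0.01 ± 0.08 (SE). Several genes of this group, such as ANGPTL4, answer to other signals as well, and the values do not separate these from the hormone.

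Inflammatory genes that glucocorticoids are known to lower numbered 12 that were tested, of which 8 rose and 1 fell. That is 66.7% and 8.33%, against 25.5% and 35.3% of all tested genes, and their median log2 fold change was 0.64. PTGS2, the inducible cyclooxygenase, rose 15.4-fold (149, 164 and 172 CPM in TEADi, against 8.87, 10.6 and 12.1 CPM in GFP). MMP9, a matrix protease that passed the filter through the TEADi libraries alone, was 17.2-fold higher (7.16, 7.48 and 6.94 CPM in TEADi, against 0.238, 0.531 and 0.483 CPM in GFP). The shares and median above count MMP9, whose call was bound to the group in which it is high. Without TEADi library A, B or C MMP9 was under the filter, and 6, 6 and 7 of the 11 genes left were called higher. IL1A rose 2.69-fold and the chemokine CXCL1 2-fold (adjusted p = 2.4e-08 and 1.5e-08, limma, Benjamini-Hochberg). IL6 was the gene that fell, with 32.9, 29.2 and 32.1 CPM in TEADi, against 51.1, 59 and 55.9 CPM in GFP. TNF, whose messenger RNA is the classical target of ZFP36, was at most 0.518 CPM in any library and did not pass the filter. CCL2 stood at each library's smallest value.

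Of 15 receptor coregulators 4 rose and 3 fell, near the background of 25.5% and below that of 35.3%, with a median of 0.07. The coactivators NCOA3 (92.8, 107 and 98.4 CPM in TEADi, against 60.4, 56.9 and 67.6 CPM in GFP) and NCOA2 (41.1, 46.8 and 41.7 CPM in TEADi, against 30.4, 25.7 and 32.3 CPM in GFP) rose 1.61-fold and 1.47-fold. SMARCD1, a SWI/SNF subunit that bridges to the receptor, fell 1.38-fold, and CBX3 fell 1.4-fold with HNRNPA2B1 overlapping it on the other strand at 472.2% of its level. Under each of the 3 other scalings 8 of the 15 were called higher. In the 11 tested relatives of the 8 genes, 3 rose and 5 fell (27.3% and 45.5%, against 25.5% and 35.3% of all tested genes).

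**Figure D4:**
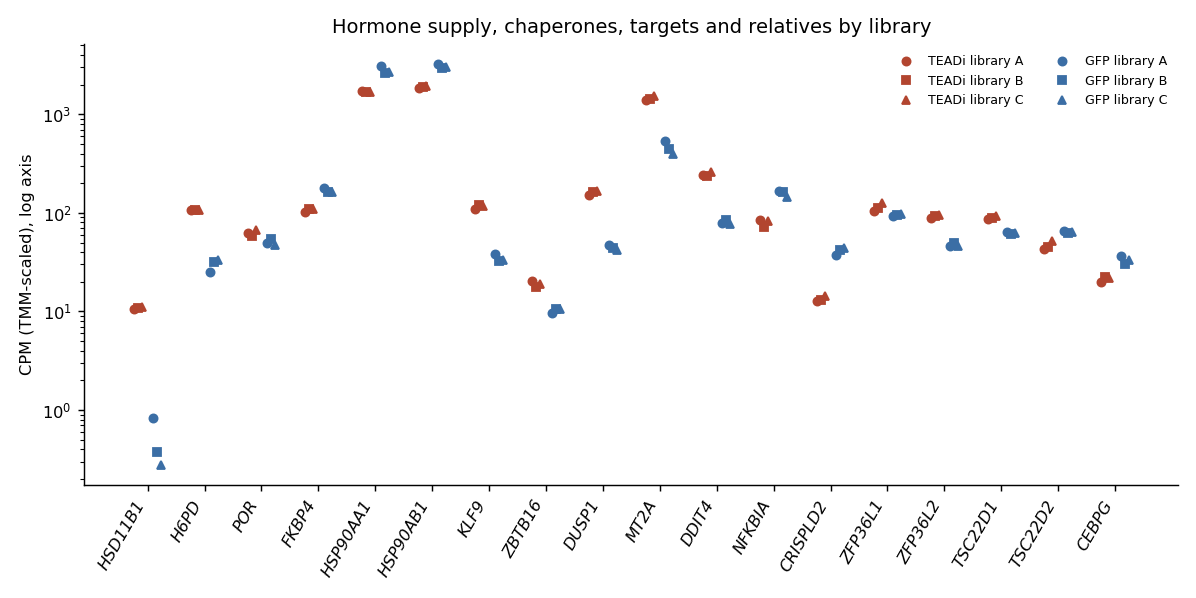
Scaled read abundance (CPM, log axis) of 18 genes of hormone supply, chaperones, targets and relatives in each TEADi library (red, left of each pair) and GFP library (blue, right). HSD11B1 and H6PD are higher in every TEADi library, FKBP4, HSP90AA1 and HSP90AB1 lower, and DUSP1, KLF9, MT2A and DDIT4 higher.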

How the data were processed

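The authors deposited CPM values scaled with TMM factors for 6 libraries, and a table of statistics with a ratio, p-values and mean values per group, signed fold changes and adjusted p, for TEADi over GFP. Per the submitters' processing notes, the build was hg19 and the tools were Partek 8.0.19.0819, STAR 2.5.1 and Trimmomatic 0.36, with no role given. The quantifier, the annotation, the deposited test and whether counting used strand are not given in the sources used here. Low values were within 0.1 of a whole multiple of the library's smallest value in 87.7% to 88.4% of cases, so counts were not recovered and no test on counts was made.

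All 6 columns were matched to labels by name, with 0 left over. The 905 entries of 421 repeated symbols were merged by adding their values above the smallest value, which left 19437 genes. None of the 8 genes was repeated. The 13640 genes that reached 1 CPM in 3 or more libraries were fitted as log2(CPM + 1) with limma 3.58.1 in R 4.3.3 (lmFit, eBayes with a trend, two-sided), without covariates. The same code was tested on simulated data with known changes. Fold differences are ratios of mean CPM. The ends of coordinates are the deposited stop minus 1. Motifs were searched in RefSeq windows.

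The 8 genes and the gene lists were chosen with earlier results of these data known. Named genes were the 8, up to 4 called genes per list with the smallest adjusted p, untested genes of short lists, the 3 profiles most like NR3C1, the markers by which libraries differ, and relatives or partners of the 8. Other names, and the members of a list that fell or rose against the rest, were chosen after their values were seen. Python 3.11.15, pandas 2.3.3, numpy 2.4.6 and matplotlib 3.10.9 were used. For 22 listed genes another gene in the table overlaps an entry and has 10% or more of that entry's level. Reads of such pairs on opposite strands could be mixed where strand was ignored. Some genes of the lists are counted but not reported here by name.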

Additional observations from a re-analysis of the deposited data

How the results depend on the processing

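In 16 alternatives (other pseudocounts, no filter on low values, 3 scalings, no variance trend, the highest entry per symbol, a replicate block, each library left out, and GFP library C alone) FKBP5, TSC22D3, ZFP36 and CEBPB kept their direction and their call. Over these their log2 fold changes ran from 0.66 to 0.83, 1.58 to 1.73, 1.22 to 1.77 and 0.42 to 0.62. The call of SGK1 was lost without the filter (-0.25), under equal totals (-0.17), under median-ratio factors (-0.17) and for GFP library C alone (-0.24), and ran from -0.28 to -0.21 with 1 library left out, so that 0 of the 8 genes were called lower in each of those 4 fits and 0 to 1 with 1 library left out. NR3C1 was called with equal totals (0.19), median-ratio factors (0.20) and quantile normalization (0.22). CEBPD was called with equal totals (0.34), median-ratio factors (0.34) and GFP library C alone (0.51), and ran from 0.14 to 0.34 with 1 library left out. Library letters were not used as pairs, since they are not stated to mark a shared day or culture. Deviations from the group mean correlated at 0.08, -0.06 and -0.02 between same-lettered libraries. Between libraries of different letters the correlations ran from -0.11 to 0.13. With the replicate block 3489 genes were called higher and 4743 lower, against 3482 and 4817 without it, SGK1 was not called (-0.25, adjusted p = 0.0662, limma, Benjamini-Hochberg), CEBPD was (0.26, adjusted p = 0.0496), and 0 of the 8 genes were lower.

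Among the lists, 8 receptor coregulators were called higher under each of the 3 scalings, equal totals, median-ratio factors and quantile normalization, against 4. Lower calls in the hormone supply list numbered 1 without the filter, 0 under equal totals, 0 under median-ratio factors, 0 for GFP library C alone and 0 to 2 with 1 library left out, against 2. ABCB1, 1 of those 2, did not reach the filter under equal totals, under median-ratio factors, with GFP library C alone or with any GFP library left out. Lower calls among glucocorticoid-repressed genes were 2 with quantile normalization, against 1. The cause of these differences was not tested. Of all calls 42.0% were higher with the authors' scaling, 50.4% under equal totals and 50.9% under median-ratio factors. TNF, HSD11B2 and IGFBP1 were below the filter and entered only the fit without it.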
